A study of Mus musculus with 24 samples.

Results

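Transcripts of 7 monocyte and macrophage identity genes, Ccr2, Ly6c2, Csf1r, Emr1, Mrc1, Marco and Cd14, were followed through osteoclast formation in bone-marrow-derived cells of STING-deficient (KO) and wild-type (WT) mice. They were picked by name, with earlier results of these data known, for a fall by day 3 and a rebound at day 4, so their levels over the days are given as a description with no test. All 7 were found among the 10721 genes of the deposited table, and all 7 were among the 10081 genes tested. The 8 groups had 3 mice each: KO at day 0, KO at days 2, 3 and 4 of RANKL, WT at day 0, and WT at days 2, 3 and 4 of RANKL. Each mouse gave all 4 days (KO mice 481, 528 and 532, WT mice 480, 529 and 531).

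Marrow came from female mice aged 10 to 12 weeks. After red cell lysis it was grown for 72 hours in 40 ng/mL mCSF, the cytokine that keeps macrophage precursors alive and dividing. Cells taken at that point were the RANKL-naive day 0 precursors. The rest were replated at 25000 cells per well in 10 ng/mL RANKL and 20 ng/mL mCSF, with part of the medium renewed at day 2, and the wells of a mouse were pooled before RNA extraction. How STING was removed is not stated in the labels. There was no culture without RANKL at days 2 to 4, so RANKL, the lower mCSF and the time in culture cannot be told apart.

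Bone marrow monocytes enter the blood through the chemokine receptor CCR2 and carry the surface protein Ly6C. In tissues, under signals from the mCSF receptor, they become macrophages that display F4/80 and scavenging receptors, and the same precursors fuse into osteoclasts when RANKL is present. RANKL signalling is known to shut down much of the monocyte and macrophage programme, in part through repressors that act on transcription factors such as IRF8.

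Values were FPKM, which are scaled for transcript length, so levels of different genes can be set side by side. The number of reads per library is unknown, so the counting error of a value cannot be given. Sting1, listed as Tmem173, checked the genotype: at day 0 it had 5.08, 4.57 and 4.89 FPKM in KO mice against 28.7, 25.4 and 21.3 FPKM in WT mice. The genotypes did not overlap on any day, but the gap was much smaller on the RANKL days. Sting1 then averaged 3.49, 3.58 and 2.79 FPKM in KO mice at days 2, 3 and 4, against 6.26, 4.43 and 4.44 FPKM in WT mice. Some macrophage-lineage transcripts stayed high throughout. The lowest group mean of Cd68, a lysosomal protein of macrophages, was 1424 FPKM. That of Sfpi1, the gene of the transcription factor PU.1, was 481 FPKM. Others fell from day 0 to day 2. Means of the IgG receptor gene Fcgr1 went from 52.0 to 0.287 FPKM in KO mice and from 75.1 to 0.396 FPKM in WT mice. Those of Lyz2 went from 15292 to 2584 FPKM in KO mice and from 15456 to 2939 FPKM in WT mice. Itgam went from 142 to 75.1 FPKM in KO mice and from 130 to 77.5 FPKM in WT mice. At day 0 the summed level of 12 neutrophil and granulocyte precursor markers was 13089, 9021 and 7600 FPKM in KO mice 481, 528 and 532, and 16166, 5967 and 9218 FPKM in WT mice 480, 529 and 531. Mice 481 and 480 also had the highest B cell marker sums of their genotype at day 0 (206 and 203 FPKM), and results that turn on either of them are given with and without it.

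Promoter windows are shown for 4 of the genes, with no choice by level over the days. They were taken from RefSeq (GRCm38.p6), 250 bases before to 50 bases after a start site, read 5′ to 3′ on the strand of the gene. Capitals mark GAGGAA, the core bound by PU.1, or its reverse complement TTCCTC. Ly6c2 had 2 start sites in the table, and the upstream site was used. The windows are chr9:124101933-124102232 (plus strand) for Ccr2, chr15:75111922-75112221 (minus) for Ly6c2, chr2:14229164-14229463 (plus) for Mrc1 and chr1:120504975-120505274 (minus) for Marco. GENCODE places the start of Ccr2 at 124101950, so most of the Ccr2 window lies within the gene as annotated there. Adgre1, the current symbol of Emr1, had no window in the table.
Ccr2: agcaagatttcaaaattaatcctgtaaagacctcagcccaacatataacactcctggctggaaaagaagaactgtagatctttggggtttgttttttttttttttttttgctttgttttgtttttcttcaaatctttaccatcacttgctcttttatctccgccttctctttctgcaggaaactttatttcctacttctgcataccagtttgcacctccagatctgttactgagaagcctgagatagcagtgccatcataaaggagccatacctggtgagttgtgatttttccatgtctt
Ly6c2: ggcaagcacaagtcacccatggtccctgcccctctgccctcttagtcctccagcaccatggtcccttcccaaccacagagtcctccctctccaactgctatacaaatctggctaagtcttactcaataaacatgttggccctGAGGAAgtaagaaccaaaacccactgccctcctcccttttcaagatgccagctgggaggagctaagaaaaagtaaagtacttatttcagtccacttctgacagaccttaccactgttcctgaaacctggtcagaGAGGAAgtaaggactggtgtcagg
Mrc1: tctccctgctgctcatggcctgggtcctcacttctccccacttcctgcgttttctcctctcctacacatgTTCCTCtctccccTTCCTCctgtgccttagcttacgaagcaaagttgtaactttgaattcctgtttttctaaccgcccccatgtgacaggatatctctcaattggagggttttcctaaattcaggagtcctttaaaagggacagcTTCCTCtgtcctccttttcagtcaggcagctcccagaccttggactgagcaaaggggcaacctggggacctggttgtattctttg
Marco: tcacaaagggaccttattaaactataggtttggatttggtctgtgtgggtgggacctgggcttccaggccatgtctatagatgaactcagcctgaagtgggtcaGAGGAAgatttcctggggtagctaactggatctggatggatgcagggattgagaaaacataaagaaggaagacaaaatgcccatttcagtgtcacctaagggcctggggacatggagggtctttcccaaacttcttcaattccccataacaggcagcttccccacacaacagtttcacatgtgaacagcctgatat

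The PU.1 core occurred 0 times in the Ccr2 window, 2 times in that of Ly6c2, 3 times in that of Mrc1, on the reverse strand each time, and 1 time in that of Marco. Of 32851 promoter windows of this length in the RefSeq table, 28.3% held it on either strand. The C/EBP letters TTNNGNAA occurred 1, 2, 2 and 3 times in the windows of Ccr2, Ly6c2, Mrc1 and Marco, and 40.7% of all windows held them. The AP-1 letters TGANTCA were in 0 of the 4 windows and in 7.81% of all windows. No match of the PU.1 core overlapped a match of either other motif. Ly6c2, without a day 4 rebound, and Mrc1, with the largest, thus both held the PU.1 core and the C/EBP letters, and these are matches of letters only.

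By day 3, 6 of the 7 genes stood below day 0 in every mouse of both genotypes, with no overlap between the days. Csf1r did not: its day 3 mean was above day 0 in both genotypes. At day 4, 6 genes were above their day 3 level in every mouse with no overlap, namely Ccr2, Csf1r, Emr1, Mrc1, Marco and Cd14, and Ly6c2 was not. Over all genes tested, the ranges of day 3 and day 0 did not overlap for 80.3% in KO and 83.1% in WT, and those of day 4 and day 3 for 48.1% in KO and 48.2% in WT. These counts follow from how the genes were picked. In bulk RNA, fewer cells of a type and less RNA per cell cannot be told apart.

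**Figure D1:**
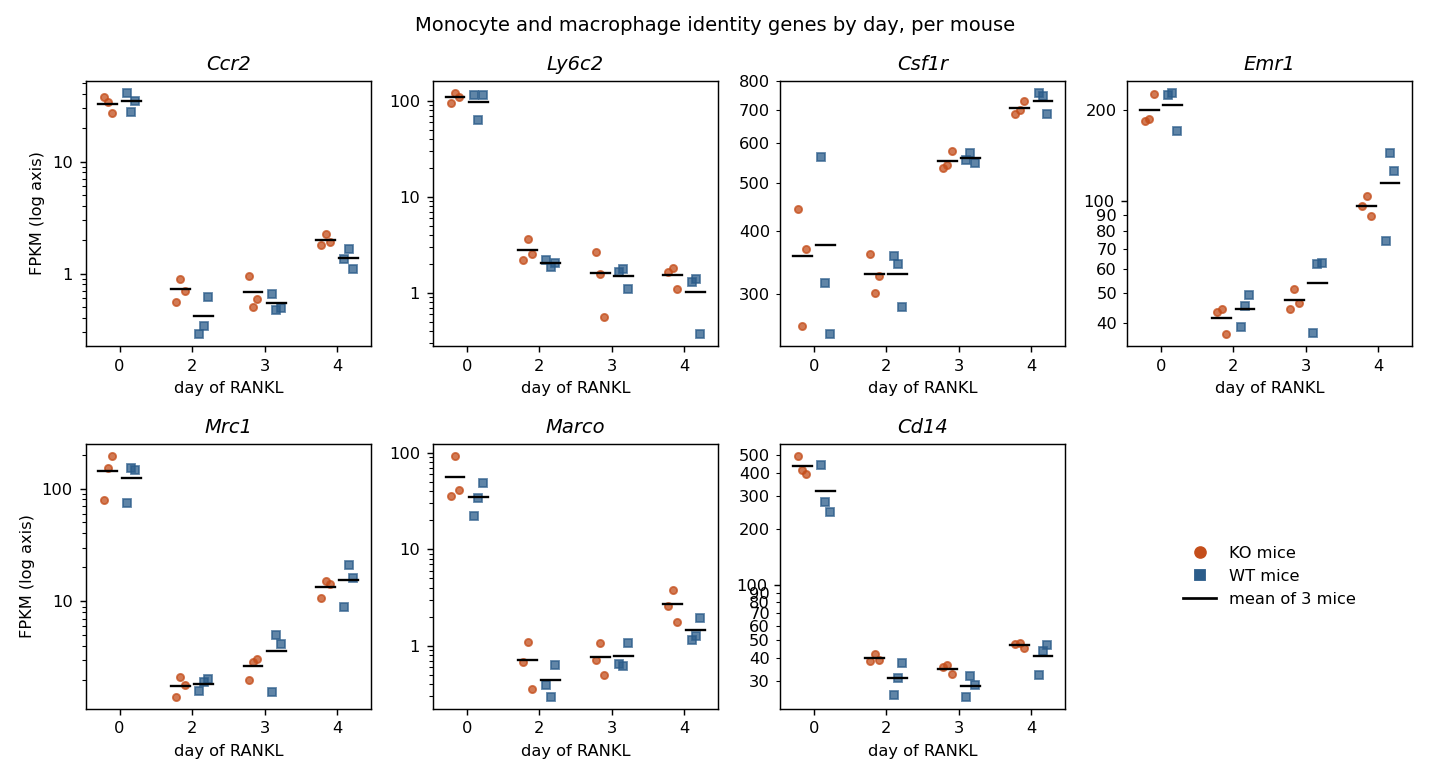
FPKM on a log axis against day of RANKL for each of the 7 genes; circles are KO mice, squares are WT mice, and black bars are means of 3 mice. Csf1r lay between 686 and 757 FPKM at day 4, against 249 to 564 FPKM at day 0, while the other 6 genes were below their day 0 range on every RANKL day.

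Ccr2 encodes the receptor that takes monocytes out of the marrow towards the chemokine CCL2 (chromosome 9, 124101950 to 124113557, plus strand, GRCm38). In KO mice 481, 528 and 532 it had 38.0, 33.9 and 27.1 FPKM at day 0, 0.559, 0.898 and 0.704 at day 2, 0.942, 0.505 and 0.589 at day 3, and 1.78, 2.26 and 1.91 at day 4. In WT mice 480, 529 and 531 it had 40.9, 28.0 and 34.6 FPKM at day 0, 0.288, 0.343 and 0.619 at day 2, 0.655, 0.472 and 0.494 at day 3, and 1.35, 1.66 and 1.09 at day 4. All day 4 libraries were above all day 2 and day 3 libraries, and all were far below day 0. The day 4 mean was 2.92 times that of day 3 in KO mice and 2.53 times in WT mice. Measured against the loss, the return was small: the share of the day 0 to day 3 difference regained at day 4 in the same mouse was 4.17% ± 1.66 in KO mice and 2.60% ± 1.49 in WT mice (SD, n = 3 each). The order of the group means was WT and KO at day 0, KO at day 4, WT at day 4, and then days 2 and 3, whose ranges overlapped between neighbours in that order.

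Ly6c2, which encodes the Ly6C antigen of classical monocytes (chromosome 15, 75108158 to 75111970, minus strand), did not return. In KO mice 481, 528 and 532 it had 95.7, 121 and 110 FPKM at day 0, 2.22, 3.67 and 2.56 at day 2, 2.67, 1.57 and 0.568 at day 3, and 1.64, 1.81 and 1.11 at day 4. In WT mice 480, 529 and 531 it had 115, 64.0 and 115 FPKM at day 0, 2.22, 1.88 and 2.07 at day 2, 1.65, 1.78 and 1.10 at day 3, and 1.31, 1.39 and 0.373 at day 4. Day 4 overlapped day 3 in both genotypes, with 2 of 3 KO mice and 0 of 3 WT mice above their own day 3 value. On the log2(FPKM + 1) scale the day 4 minus day 3 difference was 0.026 ± 0.264 (SE) in KO mice, with its sign set by single mice (0.28 without mouse 481, -0.024 without mouse 528 and -0.17 without mouse 532), and -0.34 ± 0.264 in WT mice. The day 3 mean was 1.47% of day 0 in KO mice and 1.54% in WT mice. Ly6c2 transcripts align with those of Ly6c1 over 822 bases at 97.6% identity, so reads could be split between them, since the rule for reads with several matches is not given in the sources used here. Ly6c1 was listed at no more than 1.07 FPKM in any library. In order of group means, KO and WT at day 0 overlapped and stood apart from the rest, KO and WT at day 2 followed, and all day 3 and day 4 groups overlapped their neighbours.

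Csf1r, the receptor for mCSF (chromosome 18, 61100598 to 61132149, plus strand), went against the pattern for which the genes were picked. In KO mice 481, 528 and 532 it had 444, 259 and 368 FPKM at day 0, 360, 301 and 325 at day 2, 535, 544 and 580 at day 3, and 688, 701 and 731 at day 4. In WT mice 480, 529 and 531 it had 564, 315 and 249 FPKM at day 0, 357, 344 and 282 at day 2, 555, 575 and 549 at day 3, and 757, 748 and 686 at day 4. Day 2 overlapped day 0 in both genotypes, and day 3 was above day 0 in 3 of 3 KO mice and 2 of 3 WT mice, with WT mouse 480 the exception. The day 4 mean was 1.98 times the day 0 mean in KO mice and 1.94 times in WT mice. The day 3 minus day 0 difference was 0.66 ± 0.204 on the log2(FPKM + 1) scale in both genotypes. With single mice left out it ran from 0.46 (without mouse 528) to 0.86 (without mouse 481) in KO mice and from 0.42 (without mouse 531) to 1.0 (without mouse 480) in WT mice. Day 4 in WT and KO mice headed the order of group means and stood apart from day 3, while day 3, day 0 and day 2 overlapped their neighbours. The last 873 bases of Csf1r overlap Hmgxb3 on the opposite strand, listed at 4.98 to 9.74 FPKM, and whether counting used strand is not given in the sources used here.

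Emr1, now named Adgre1, encodes the macrophage antigen F4/80 (chromosome 17, 57358691 to 57483527, plus strand) and regained the largest share of its loss. KO mice 481, 528 and 532 had 184, 186 and 226 FPKM at day 0, 43.5, 44.3 and 36.7 at day 2, 44.5, 51.4 and 46.3 at day 3, and 96.9, 104 and 89.9 at day 4. WT mice 480, 529 and 531 had 223, 227 and 171 FPKM at day 0, 38.8, 45.5 and 49.4 at day 2, 37.1, 62.1 and 63.0 at day 3, and 73.9, 144 and 126 at day 4. Every day 4 library was above every day 3 library and below every day 0 library. Emr1 regained 33.6% ± 8.13 in KO mice and 42.6% ± 20.2 in WT mice (SD, n = 3 each), where WT mouse 480 regained 19.8% and mice 529 and 531 regained 49.7% and 58.3%. The day 4 mean was 2.04 times that of day 3 in KO mice and 2.12 times in WT mice. In order, WT and KO means at day 0, at day 4, at day 3 and at day 2 followed each other, with the genotypes overlapping at each day and days 3 and 2 overlapping as well. Emr4, a related adhesion receptor gene, averaged 1.39 FPKM in KO mice and 1.98 FPKM in WT mice at day 4, and 0.273 FPKM in KO mice and 0.342 FPKM in WT mice at day 3.

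Mrc1 encodes the mannose receptor CD206 (chromosome 2, 14229392 to 14332057, plus strand) and had the largest day 4 to day 3 ratio of the 7 genes. In KO mice 481, 528 and 532 it had 78.9, 153 and 195 FPKM at day 0, 1.43, 2.14 and 1.80 at day 2, 2.00, 2.90 and 3.07 at day 3, and 10.7, 15.1 and 14.3 at day 4. In WT mice 480, 529 and 531 it had 73.7, 152 and 145 FPKM at day 0, 1.61, 1.94 and 2.04 at day 2, 1.57, 5.06 and 4.23 at day 3, and 8.89, 21.2 and 16 at day 4. Mouse 481 was the lowest of the KO mice and mouse 480 the lowest of the WT mice on all 4 days. The day 4 mean was 5.03 times that of day 3 in KO mice and 4.25 times in WT mice, and the share regained was 8.42% ± 2.73 in KO mice and 9.83% ± 1.36 in WT mice. The differences from day 3 to day 4 within single mice lay between 1.91 and 2.04 on the log2(FPKM + 1) scale in KO mice and between 1.70 and 1.94 in WT mice, closer together than their levels. The order of the days was that of Emr1, and KO and WT mice overlapped at each day.

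Marco, a scavenger receptor for bacteria and particles (chromosome 1, 120474538 to 120505024, minus strand), was nearly lost and stood at 1.14 to 3.80 FPKM at day 4. KO mice 481, 528 and 532 had 35.8, 93.5 and 40.8 FPKM at day 0, 0.680, 1.08 and 0.355 at day 2, 0.711, 1.06 and 0.50 at day 3, and 2.60, 3.80 and 1.75 at day 4. WT mice 480, 529 and 531 had 22.1, 33.9 and 49.3 FPKM at day 0, 0.394, 0.295 and 0.630 at day 2, 0.646, 0.621 and 1.07 at day 3, and 1.14, 1.27 and 1.95 at day 4. KO mouse 528 and WT mouse 531 were the highest of their genotype on all 4 days. The day 4 mean was 3.59 times that of day 3 in KO mice and 1.86 times in WT mice, and 3.81% ± 1.35 of the loss was regained in KO mice and 2.02% ± 0.241 in WT mice. KO and WT mice overlapped at each day, and days 2 and 3 overlapped each other. These ratios rest on day 3 levels near 1 FPKM, where the log2(FPKM + 1) scale understates a change.

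Cd14, the co-receptor that hands lipopolysaccharide to TLR4 (chromosome 18, 36725067 to 36726798, minus strand), overlapped with Csf1r in FPKM at day 0 and had the smallest day 4 to day 3 ratio among the 5 genes that were below day 0 at day 3 and returned at day 4. KO mice 481, 528 and 532 had 495, 417 and 396 FPKM at day 0, 38.7, 42.4 and 39.1 at day 2, 35.9, 36.6 and 32.9 at day 3, and 47.8, 48.3 and 45.7 at day 4. WT mice 480, 529 and 531 had 440, 280 and 245 FPKM at day 0, 25.4, 31.2 and 37.7 at day 2, 24.8, 32.0 and 28.8 at day 3, and 32.5, 44.0 and 47.2 at day 4. Mouse 480 had the highest WT value at day 0 and the lowest on every RANKL day. The day 4 mean was 1.35 times that of day 3 in KO mice and 1.45 times in WT mice, and 3.07% ± 0.462 of the loss was regained in KO mice and 5.08% ± 3.33 in WT mice. After KO and WT at day 0, the groups followed in the order KO day 4, WT day 4, KO day 2, KO day 3, WT day 2 and WT day 3, with a gap between KO day 2 and KO day 3 and overlap between the other neighbours.

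**Figure D2:**
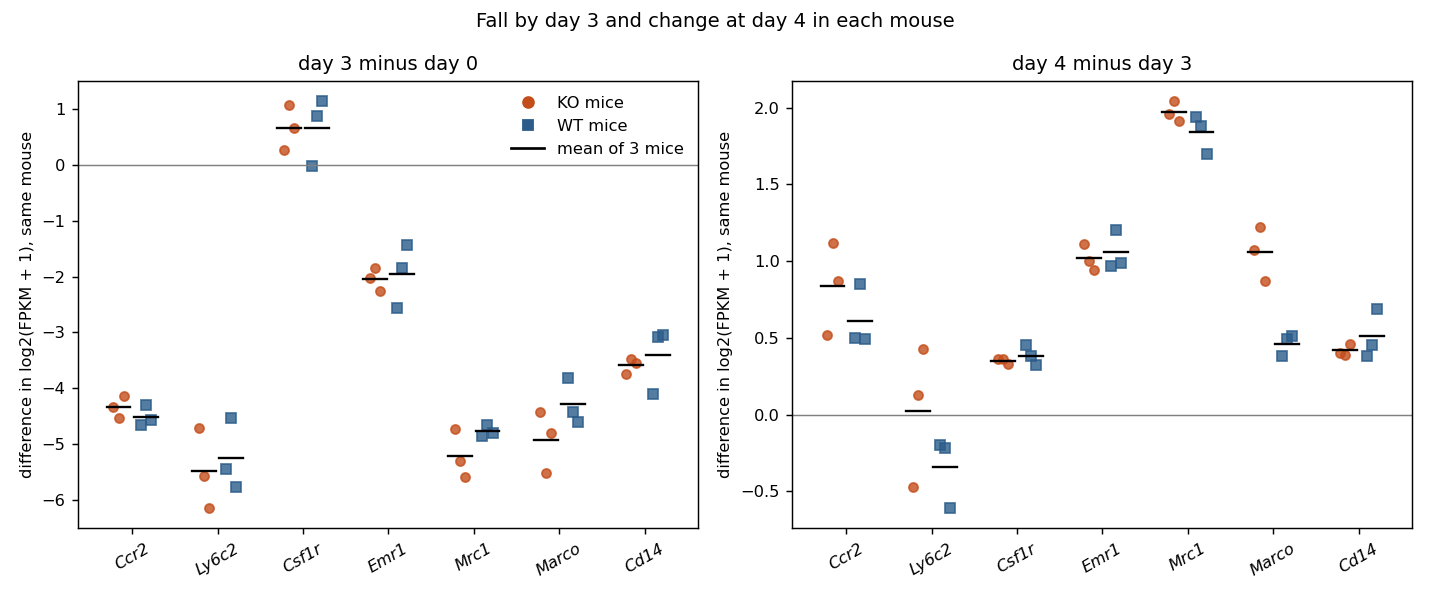
Difference in log2(FPKM + 1) between days within each mouse, day 3 minus day 0 on the left and day 4 minus day 3 on the right; circles are KO mice, squares are WT mice, and bars are means of 3 mice. Csf1r is the gene whose means lie above 0 on the left (0.66 in both genotypes), and on the right Mrc1 is highest (1.97 in KO mice, 1.84 in WT mice) with Ly6c2 around 0.

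Ly6c2 and Mrc1 were both far below day 0 at day 3 and then parted at day 4. Ly6c2, with a day 3 minus day 0 difference of -5.48 in KO mice and -5.26 in WT mice on the log2(FPKM + 1) scale, stood beside Mrc1, with -5.21 in KO mice and -4.77 in WT mice. The order among the lowest genes depended on the value added before the logarithm. With 0.1 added, Mrc1 stood at -5.62 in KO mice and -5.14 in WT mice. Marco in KO mice (-5.97) and Ccr2 (-5.75) and Marco (-5.28) in WT mice then had larger differences. Ly6c2 had the largest with either value (-6.22 in KO mice and -5.90 in WT mice with 0.1 added). Emr1 had the shallowest fall, -2.04 in KO mice and -1.95 in WT mice, and a day 4 minus day 3 difference of 1.02 and 1.06. Cd14, at -3.59 in KO mice and -3.41 in WT mice, returned by 0.42 and 0.51. Both differences use the day 3 libraries, so an error there moves them in opposite directions.

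Whether STING bears on these genes was asked at each day and for the 2 steps between days, by limma on log2(FPKM + 1) over all 10081 genes. None of the 7 genes passed an adjusted p of 0.05 between KO and WT mice: 0 of 7 passed at day 0, where 0.377% of all genes tested passed, 0 of 7 at days 2, 3 and 4, where 0.00992% passed each time, 0 of 7 for the change of day 3 against day 0, where 0.0694% passed, and 0 of 7 for that of day 4 against day 3, where 0% passed. At an unadjusted p below 0.05, Cd14 at day 0 and Ccr2 at day 4 were the only cases of the 7 genes in these 6 comparisons. Of all genes, 10.9% at day 0 and 0.803% at day 4 fell below it, so 1 of 7 at day 0 is near that share. A fit that weights samples by the spread of their day also called 0 of 7 each time, with 0, 2, 1 and 2 genes at an unadjusted p below 0.05 at days 0, 2, 3 and 4, against 1.96%, 1.01%, 3.55% and 1.70% of all genes, and 0 and 1 for the 2 steps, against 3.52% and 0.992%. The ranges of KO and WT mice did not overlap for Ly6c2 and Cd14 at day 2, Cd14 at day 3 and Ccr2 at day 4, against 3.91%, 7.47% and 3.98% of all genes at those days, and for 0 of 7 genes at day 0, against 5.88%. The gap for Ly6c2 at day 2 was within rounding, with 2.22 FPKM in the lowest KO mouse and in the highest WT mouse.

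Cd14 was the gene with the lowest unadjusted p. At day 0 it averaged 436 ± 51.9 FPKM in KO mice and 321 ± 104 FPKM in WT mice (SD, n = 3 each), a log2 difference of 0.48 with a 95% interval of 0.12 to 0.84 and a limma p of 0.0120, adjusted to 0.365. WT mouse 480 decided this call: without it the difference was 0.73 with an adjusted p of 0.00233 by limma, the lowest over 13 alternatives, which reached 1. In that mouse the neutrophil marker sum at day 0 was 16166 FPKM, against 5967 and 9218 FPKM in the other WT mice, and the part of this in the Cd14 value was not tested. The intervals use 1 spread per gene for all days. The median SD over genes was 0.182 in KO mice and 0.192 in WT mice at day 0, and no more than 0.125 later. Day 0 intervals may thus be too narrow and later ones too wide. In the fit weighted by day, Cd14 at day 0 was not below an unadjusted p of 0.05. Cd14 stayed higher in KO means on the later days, with log2 differences of 0.36 at day 2 (-0.005 to 0.72), 0.30 at day 3 (-0.065 to 0.66) and 0.21 at day 4 (-0.15 to 0.57). Its gene lies 0.989 Mb from Sting1 on chromosome 18, and Csf1r lies 25.4 Mb from it.

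Ccr2 at day 4 averaged 1.98 ± 0.250 FPKM in KO mice and 1.37 ± 0.286 FPKM in WT mice (SD, n = 3 each), a log2(FPKM + 1) difference of 0.34 with an interval of 0.039 to 0.64, an unadjusted limma p of 0.0288 and an adjusted p of 1. Its return from day 3 differed between genotypes by 0.22 (-0.20 to 0.64), which is within the error. An earlier account of these data had given Ccr2 and Marco at day 4, so their values at that day are not independent support. Marco had differences of 0.61 at day 0 (-0.0071 to 1.23) and 0.57 at day 4 (-0.045 to 1.20). Between genotypes, its change by day 3 differed by -0.64 (-1.51 to 0.24) and its return by 0.60 (-0.28 to 1.47). For Csf1r the differences were between -0.047 and 0.0066 over the 4 days, with intervals reaching from -0.47 to 0.43. Emr1 was lower in KO means on all 4 days, with a difference of -0.19 at day 4 (-0.61 to 0.24). The intervals of Mrc1 were the widest, from -0.97 to 0.45 at day 3 in log2 units, which spans sizeable differences of either sign.

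**Figure D3:**
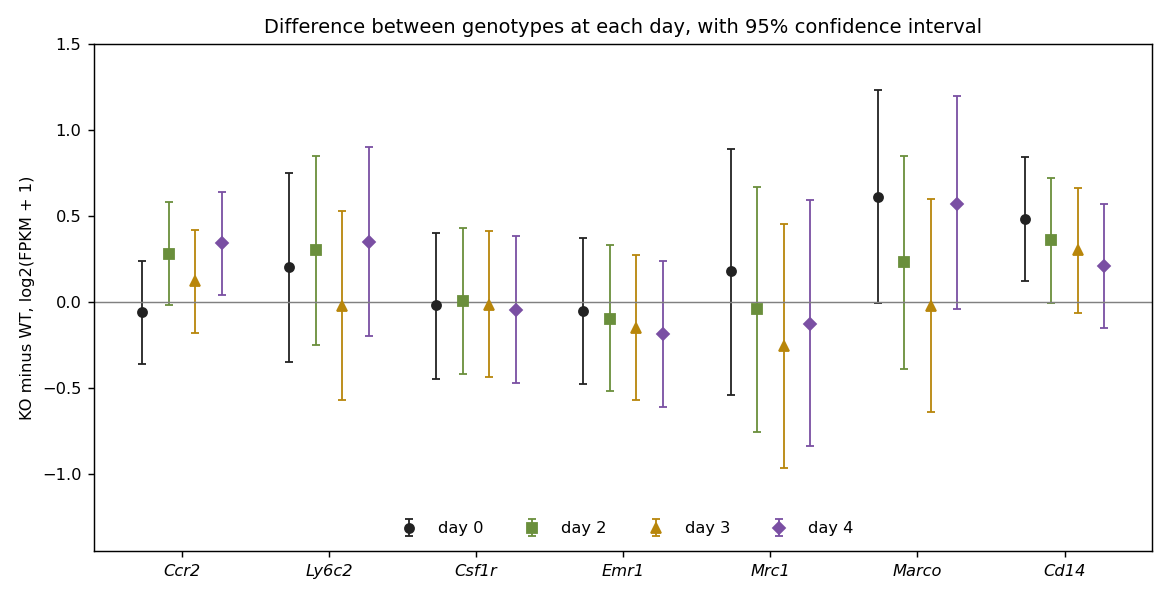
KO minus WT difference in log2(FPKM + 1) for each gene at days 0, 2, 3 and 4, with 95% confidence intervals from limma (3 mice per group). The intervals of Cd14 at day 0 (0.12 to 0.84) and of Ccr2 at day 4 (0.039 to 0.64) lie above 0, and all others include 0. They use 1 spread per gene for all days, although the median spread over genes was largest at day 0.

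Other genes of the monocyte and macrophage programme were counted from 6 lists with 103 tested genes, the 7 left out, and tested between days by limma with Benjamini-Hochberg adjustment. By day 3, 80 of 103 had fallen in KO mice and 80 in WT mice, against 41.8% and 43.3% of all genes tested, and 15 had risen in KO mice and 17 in WT mice, against 41.0% and 42.0%. The median log2 change was -1.69 in KO mice and -1.92 in WT mice, beside -0.016 and -0.037 over all genes. At day 2 the counts were already 81 and 80 fallen (39.4% and 40.1% of all genes) and 13 and 13 risen (40.1% and 41.2%). From day 3 to day 4, 46 rose and 2 fell in KO mice, and 50 rose and 2 fell in WT mice, against 9.69% rising and 8.25% falling over all genes in KO and 10.8% and 10.9% in WT. The median was 0.43 in KO mice and 0.45 in WT mice, beside 0.0025 and -0.01 over all genes. The day 4 counts depended on the samples and the fit. With single mice left out, and so fewer samples, 21, 20 and 19 rose in KO mice without mouse 481, 528 or 532. In WT mice 25 and 31 rose without mouse 529 or 531. The highest counts were 67 in KO mice, with the compared groups fitted alone, and 63 in WT mice, with samples weighted by day. Between KO and WT mice, limma called 0 of the 103 at each day and in both steps, with 8, 1, 0 and 0 at an unadjusted p below 0.05 at days 0, 2, 3 and 4 and 2 and 0 for the steps, and the fit weighted by day also called 0. Over all genes the shares at that unadjusted p were 10.9%, 0.645%, 0.774% and 0.803% at the 4 days and 7.81% and 0.317% for the steps.

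Among blood monocyte markers and chemokine receptors, 12 of 16 fell by day 3 in each genotype and 4 rose at day 4 in KO mice and 5 in WT mice. Fcgr1, the high-affinity IgG receptor, fell (log2 change -5.34 in KO mice and -5.85 in WT mice). The exceptions were Ccr1, a chemokine receptor that osteoclasts also carry, which rose by 4.30 in KO mice and 4.36 in WT mice, and the matrix proteoglycan Vcan and the integrin Itga4, which rose in both. Itgal, the integrin chain of LFA-1, stood 0.13 above day 0 at day 3 in KO mice, short of the threshold, rose by 0.62 in WT mice, and rose again at day 4 by 1.0 in KO mice and 1.02 in WT mice. Fcgr4, an IgG receptor of patrolling monocytes, fell (-3.14 in KO mice and -3.60 in WT mice) and rose at day 4 by 0.66 in KO mice and 0.74 in WT mice. The WT rise of Fcgr4 lost its call without mouse 531 (0.62, adjusted p 0.102 by limma) and when the compared groups were fitted alone (0.74, adjusted p 0.0649).

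Macrophage surface receptors gave 19 falls in KO mice and 20 in WT mice among 22 by day 3, 0 rises in either, and 14 and 15 rises at day 4. Clec7a, the fungal glucan receptor dectin-1, fell (log2 change -2.48 in KO mice and -2.68 in WT mice), then rose at day 4 (1.55 in KO mice and 1.65 in WT mice). Fcgr3, a low-affinity IgG receptor, fell (-4.46 in KO mice and -4.23 in WT mice) and rose (1.49 in KO mice and 1.52 in WT mice). Clec4n, the dectin-2 gene, fell (-1.63 in KO mice and -2.11 in WT mice) and rose (1.33 in KO mice and 1.63 in WT mice). Trem2, a lipid-sensing receptor, fell (-3.56 in KO mice and -3.82 in WT mice) and rose (0.59 in KO mice and 0.68 in WT mice), with adjusted p of 0.0240 in KO mice and 0.00887 in WT mice for the rise in limma. Clec10a, a galactose lectin, and Cd200r1, an inhibitory receptor, did the same. By day 3 their log2 changes were -5.02 and -2.32 in KO mice and -5.27 and -2.47 in WT mice, and at day 4 they were 1.04 and 0.59 in KO mice and 1.05 and 0.63 in WT mice.

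Secreted and intracellular macrophage genes gave 16 falls and 2 rises among 18 by day 3 in each genotype, then 12 rises and 1 fall at day 4 in each. Apoe, the lipid carrier apolipoprotein E, fell (log2 change -4.21 in KO mice and -4.62 in WT mice) and rose at day 4 by 1.79 in KO mice and 1.95 in WT mice, sizes close to those of Mrc1. Mpeg1, the pore protein perforin-2, rose at day 4 by 1.33 in both genotypes, and Cybb, the catalytic chain of the phagocyte oxidase, by 1.09 in KO mice and 1.18 in WT mice. Ccl6, a macrophage chemokine, fell by day 3 (-5.57 in both genotypes) and rose at day 4 by 1.14 in KO mice and 0.99 in WT mice. Slc11a1, a phagosomal metal transporter, fell (-2.64 in KO mice and -2.44 in WT mice), and its day 4 differences of 0.29 in KO mice and 0.33 in WT mice missed the threshold. The chemokine Ccl9 went the other way, with a rise by day 3 of 0.82 in KO mice and 0.54 in WT mice and a fall at day 4 (-0.49 in KO mice and -0.50 in WT mice).

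Genes around Cd14 were mixed in the same manner. Of 17 genes for lipopolysaccharide and Toll-like receptor sensing, 13 fell in KO mice and 12 in WT mice by day 3, and 8 rose in KO mice and 9 in WT mice at day 4. Ly86, the partner of the receptor CD180, fell (log2 change -5.83 in KO mice and -6.20 in WT mice) and rose at day 4 by 1.47 in both. Tlr13, Tlr1 and Tlr7, sensors of microbial RNA and lipoproteins, rose at day 4 by 1.13, 1.08 and 0.96 in KO mice and by 1.05, 1.17 and 1.0 in WT mice. The WT rise of Tlr7 lost its call without mouse 529 (0.85). Lbp, the protein that brings lipopolysaccharide to CD14, fell (-1.85 in KO mice and -1.68 in WT mice) and at day 4 stood 0.027 above day 3 in KO mice and 0.013 above it in WT mice. The adaptors Tirap and Ticam1 rose by day 3 in both genotypes.

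Genes near Csf1r in function went both ways: of 11 mCSF and related cytokine receptor genes, 6 fell and 4 rose by day 3 in each genotype. These are near the shares of all genes, of which 41.8% in KO mice and 43.3% in WT mice fell and 41.0% and 42.0% rose. The risers were Tnfrsf11a, the RANK receptor itself, by 1.88 in KO mice and 2.01 in WT mice, Il34, a second ligand of the mCSF receptor, by 2.67 in KO mice and 2.61 in WT mice, and Csf2rb and Ifngr2. Il34 then fell at day 4 (-0.44 in KO mice and -0.46 in WT mice), while Csf1r stood higher. The fall of Il34 in WT mice lost its call without mouse 529 (-0.35) or mouse 531 (-0.49). The TNF receptor genes Tnfrsf1a (-1.21 in KO mice and -1.09 in WT mice) and Tnfrsf1b (-1.44 in KO mice and -1.59 in WT mice) fell by day 3. Ifngr1, the ligand-binding chain of the interferon gamma receptor, fell (-0.97 in KO mice and -1.17 in WT mice) and rose at day 4 by 0.49 in KO mice and 0.61 in WT mice.

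Of 19 transcription factors of the lineage, 14 fell and 4 rose by day 3 in each genotype, and 7 rose at day 4 in each. Irf8, a monocyte-determining factor, had 82.0, 69.6 and 77.2 FPKM in KO mice and 95.9, 71.5 and 65.8 FPKM in WT mice at day 0, and fell by day 3 (log2 change -4.44 in KO mice and -4.26 in WT mice). It rose at day 4 by 1.13 in KO mice, with an adjusted p of 0.000550, and by 1.07 in WT mice, with an adjusted p of 0.000701 (limma). Maf, a factor of the macrophage state, fell by day 3 (-4.14 in KO mice and -3.86 in WT mice) and rose at day 4 by 1.66 in KO mice and 1.53 in WT mice. Klf2, a factor of quiescent monocytes, fell (-3.96 in KO mice and -4.22 in WT mice) and at day 4 stood 0.22 above day 3 in KO mice and 0.25 in WT mice, short of the threshold. Sfpi1 rose by day 3, by 0.63 in KO mice and 0.42 in WT mice, as did Bhlhe40, a repressor, by 3.36 in KO mice and 3.18 in WT mice, and Tfec and Zeb2.

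**Figure D4:**
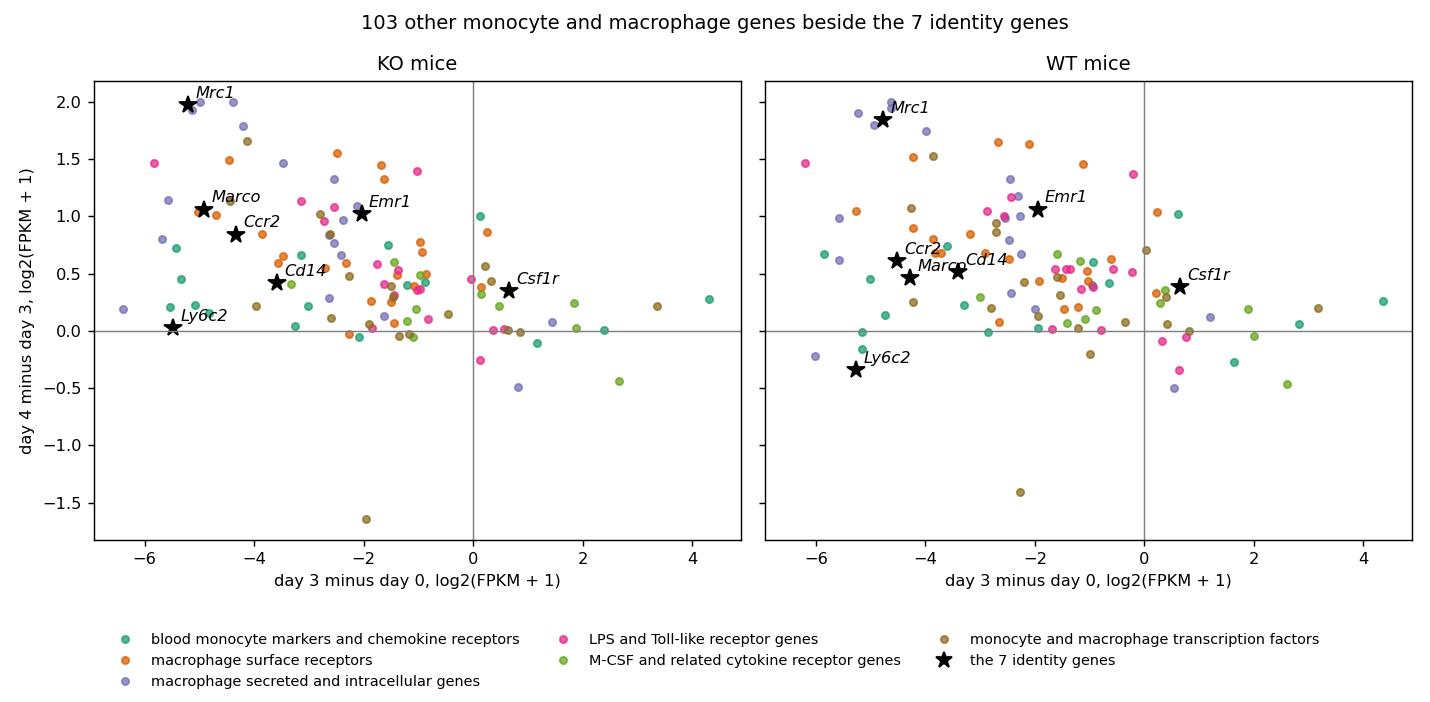
Day 4 minus day 3 against day 3 minus day 0, both in log2(FPKM + 1), for 103 other monocyte and macrophage genes (dots, coloured by list) and the 7 identity genes (stars), KO mice left and WT mice right. Both axes use the day 3 libraries; Mrc1 lies at the upper left with Apoe, and Ly6c2 lies at the lower left near 0.

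Marker lists of other cell types followed different courses over the days. The sum of 12 neutrophil and granulocyte precursor markers, of 15 listed, was 7600 to 13089 FPKM in KO mice and 5967 to 16166 FPKM in WT mice at day 0, 106 to 174 and 78.7 to 172 FPKM at day 3, and 126 to 140 and 74.4 to 163 FPKM at day 4, with no marker listed at 0 in a whole group. Like Ly6c2, it showed no return at day 4, where its range overlapped that of day 3 in both genotypes. The sum of 7 dendritic cell markers, of 10 listed, was lowest at day 2. It was 11.5 to 21.9 FPKM in KO mice and 13 to 22.6 FPKM in WT mice at day 0, 3.35 to 4.03 and 2.84 to 4.40 at day 2, 5.59 to 7.60 and 5.71 to 8.06 at day 3, and 11 to 15.4 and 12.1 to 13.4 at day 4. The means of Emr1, Mrc1 and Marco moved in the same directions, but from day 2 to day 3 WT mouse 480 fell for Emr1 and Mrc1. At day 4 these means were 48.7%, 9.39% and 4.79% of day 0 in KO mice. In WT mice they were 55.4%, 12.4% and 4.14%. Most of the later part of the dendritic cell sum was Itgax, the CD11c chain. It averaged 3.24, 2.11, 4.33 and 11.3 FPKM in KO mice and 3.50, 2.11, 4.55 and 10.2 FPKM in WT mice at days 0, 2, 3 and 4. Zbtb46, of the same list, rose in means at each step, from 0.101 to 1.65 FPKM in KO mice and from 0.0970 to 1.54 FPKM in WT mice. Batf3, a dendritic cell factor, averaged 7.19 FPKM in KO mice and 9.47 FPKM in WT mice at day 0 and did not return, with 0.214 FPKM in KO mice and 0.384 FPKM in WT mice at day 4. The markers of this list thus did not share the course of its sum. The sum of 15 osteoclast markers was 53243 to 58391 FPKM in KO mice and 48101 to 56458 FPKM in WT mice at day 4, against 745 to 1066 FPKM in KO mice and 880 to 1165 FPKM in WT mice at day 0. B cell markers, 8 of 9 in the table, summed to no more than 49.7 FPKM on the RANKL days, against 114 to 206 FPKM in KO mice and 95 to 203 FPKM in WT mice at day 0. On those days 7 of the 8 averaged below 1 FPKM, Cd79a and Cd79b of the B cell receptor among them, and nearly all of the sum was the adaptor gene Blnk, at up to 49.3 FPKM. T and NK cell, stromal, and erythroid and mast cell markers summed to at most 1.85, 2.65 and 23.7 FPKM in any library. Only 2 of 10, 3 of 11 and 4 of 9 markers of these lists were in the table. Their low sums therefore do not show that these cells were absent. At days 2 to 4, 1 to 4 of the 8 B cell markers and 1 to 3 of the 4 erythroid and mast cell markers were listed at 0 in a whole group. The part of these cells in the levels of the 7 genes was not tested.

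**Figure D5:**
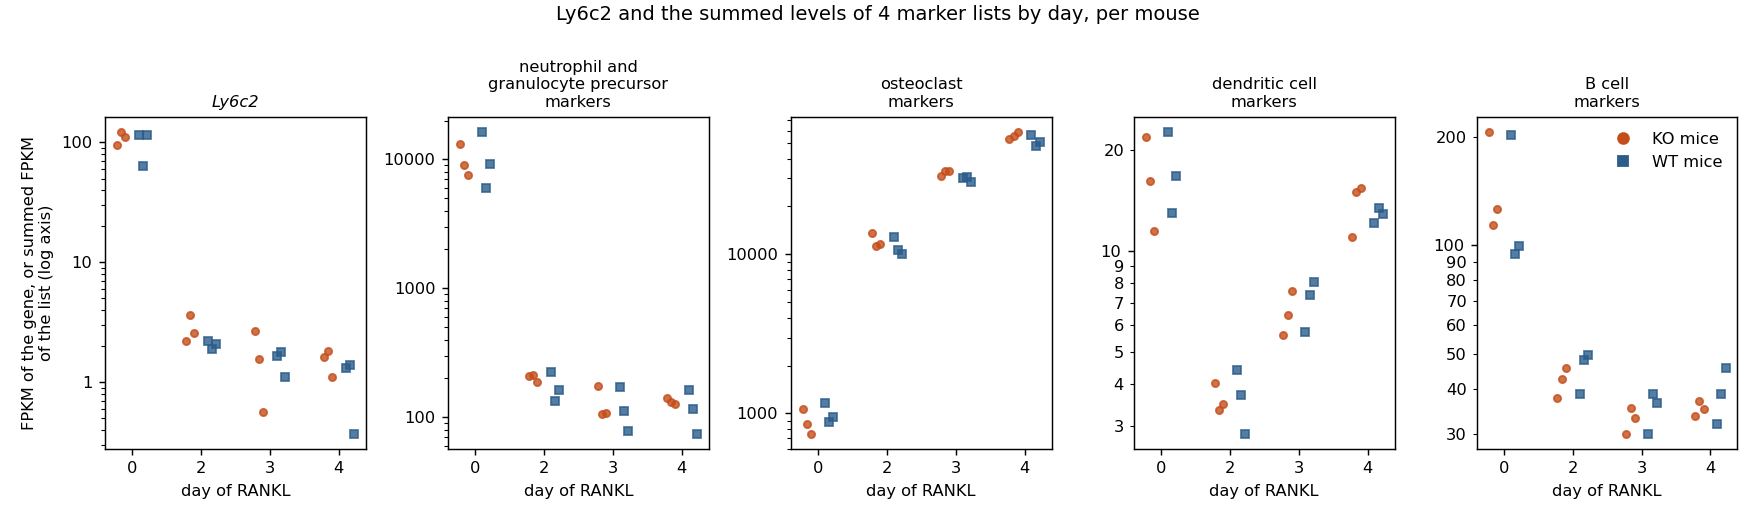
Level of Ly6c2 and summed levels of 4 marker lists in FPKM on log axes against day of RANKL; circles are KO mice and squares are WT mice. Ly6c2 and the neutrophil list are high at day 0 and stay low on days 2 to 4, while the dendritic list is lowest at day 2 and stands at 11 to 15.4 FPKM in KO mice at day 4, against 11.5 to 21.9 FPKM at day 0.

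The genes whose pattern was most like each of the 7 were found by Pearson correlation of log2(FPKM + 1) over the 24 libraries, which share mice and are spread mostly by day 0 against the RANKL days. For Ly6c2 they were Plac8 (r = 0.994), Pglyrp1 (0.993) and Ngp (0.993), and Pglyrp1 and Ngp encode neutrophil granule proteins. Ngp had 17.3, 21.1 and 21.8 FPKM in KO mice and 25.6, 14.9 and 12.1 FPKM in WT mice at day 4, against 1424, 1073 and 1349 FPKM in KO mice and 1745, 839 and 1068 FPKM in WT mice at day 0. For Mrc1 they were the macrophage factor Maf (0.997), Slc9a9 (0.997) and Aoah (0.991), an enzyme that inactivates lipopolysaccharide. For Emr1 they were Mpeg1 (0.991), the selenium carrier gene Sepp1 (0.989) and Tlr1 (0.986). Csf1r had Pnpla7 (0.986), St6gal1 (0.985) and Plekhm1 (0.985), the last a gene of lysosome traffic in osteoclasts. Ccr2 had Lyl1 (0.994), Ppfia4 (0.993) and Penk (0.991), Marco had Acss1 (0.982), Ogfrl1 (0.981) and Tubb2a (0.980), and Cd14 had Acvrl1 (0.988), Nckipsd (0.986) and Ccr2 (0.986). Among the 7 themselves, Emr1 and Mrc1 stood at 0.97 and Ccr2 and Cd14 at 0.99, while Csf1r ran from -0.52 with Ly6c2 to -0.00 with Emr1.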

How the data were processed

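RNA-seq was made from 24 libraries. Per the submitters' processing notes, mm10, HISAT2 2.0.5, Cufflinks 2.2.1 and Cuffdiff were used. The authors deposited FPKM in 1 table of 10721 genes, which its name marks as significant. How they were picked, the strand setting and the handling of reads with several matches are not known. All 24 value columns were used. For limma 3.58.1 (R 4.3.3), 1 was added to each FPKM before log2. Genes reaching a mean of 1 FPKM in any group (10081) entered a fit of 8 means, with 1 trended spread per gene and 16 residual degrees of freedom. Two-sided p-values got a Benjamini-Hochberg adjustment per comparison (threshold 0.05). The fit was tested on simulated data.

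The 7 genes and all lists were chosen with earlier results of these data known. Text names up to 3 genes per list with the smallest adjusted p in WT for each step; exceptions to a list's direction, and Hmgxb3, were named after their values were seen. Some genes under this rule are not reported here. The replicate is the mouse. Each mouse gave 4 days, so mouse numbers pair samples by animal: its deviations correlated over genes with a median of 0.261 in KO mice (17 of 18 pairs above 0.1) and 0.136 in WT mice (10 of 18). Alternatives were adding 0.1, no filter, a 5 FPKM filter, scaling by medians, fitting the 2 groups alone, weights by day, a block by mouse and each mouse left out. Positions are from GENCODE vM21 (GRCm38). Promoter windows of Csf1r and Cd14, which lie on the chromosome of Sting1, are not shown. Transcripts were compared by blastn 2.17.0 (at least 90% identity over 100 bases).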

Additional observations from a re-analysis of the deposited data

How the results depend on the processing

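The call on all 7 genes between KO and WT mice held (0 of 7) at days 2, 3 and 4 and in both steps under 13 alternatives; at day 0 it was 0 to 1 when single mice were left out, the 1 being Cd14 without WT mouse 480. The block by mouse changed no call on the 7 genes and moved no count of list genes by over 1.5 times; over all genes it called 11, against 7, for KO against WT in the change of day 3 against day 0. With 0.1 added in place of 1, list genes falling from day 3 to day 4 in KO mice numbered 1, against 2. With single mice left out, list genes rising from day 3 to day 4 numbered 19 to 53 in KO mice and 25 to 51 in WT mice, and those falling numbered 0 to 3 in KO mice and 0 to 2 in WT mice, with fewer samples in the fit. Over all genes, those passing from day 3 to day 4 numbered 1809 in KO mice (480 to 3609 over the alternatives) and 2195 in WT mice (913 to 3913), and those between KO and WT mice at day 0 numbered 38 (3 to 84). Adding 0.1 raised the sizes of day differences of genes near 1 FPKM, for Ccr2 at day 4 against day 3 to 1.45 in KO mice and 1.19 in WT mice, and turned no direction of the 7 genes over the days. Scaling by medians put the KO minus WT difference of Csf1r at day 3 at 0.0051, with the sign reversed.

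Leaving out single mice also turned signs of KO minus WT differences that were near 0. At day 0 these ran from -0.20 to 0.07 for Ccr2, -0.081 to 0.34 for Ly6c2, -0.27 to 0.32 for Csf1r, -0.18 to 0.019 for Emr1 and -0.16 to 0.55 for Mrc1. At day 2 they ran from -0.10 to 0.073 for Csf1r and -0.13 to 0.054 for Mrc1, at day 3 from -0.31 to 0.30 for Ly6c2, -0.053 to 0.0061 for Csf1r and -0.14 to 0.092 for Marco, and at day 4 from -0.47 to 0.0038 for Emr1 and -0.45 to 0.13 for Mrc1. For the change of day 3 against day 0 they ran from -0.60 to 0.14 for Ly6c2, -0.34 to 0.24 for Csf1r, -0.40 to 0.16 for Emr1 and -0.53 to 0.0016 for Cd14. For day 4 against day 3 they ran from -0.06 to 0.003 for Csf1r, -0.083 to 0.035 for Emr1 and -0.15 to 0.006 for Cd14. The cause was not tested. Depth is unknown, so what it limits below 1 FPKM cannot be stated.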
